A study of Mus musculus with 19 samples.

Results

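The dorsolateral (DLP) and ventral (VP) lobes of the prostate were compared in mice that had all been fed a high fat diet (HFD), with DLP minus VP as the contrast. The comparison used 9 of the 19 arrays of the series, 4 labelled HFD DLP and 5 labelled HFD VP. A probe set (the group of probes that reports 1 transcript) was covered if it exceeded its array's median on 4 or more of these 9 arrays, which kept 23265 of 45037 non-control probe sets and, among them, 11143 named genes. Just inside that limit, 876 probe sets lay above the median on exactly 4 arrays, and just outside it 755 did so on exactly 3.

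The mice were C57BL/6J, 8 weeks old at the start, and 5 animals received each diet freely for 12 weeks. The high fat arrays therefore share strain, starting age and feeding, and the other 10 arrays of the series are both lobes of mice on the control diet. Lobes were frozen at dissection, and their total RNA was labelled with biotin for a 3′ expression array, 1 sample per array. No label ties an array to a mouse. With 5 mice on the diet, some arrays must share an animal, and the p-values describe variation among these arrays, part of which may be technical. The anterior lobe, also named in the labels, was not analysed here.

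The mouse prostate consists of paired lobes that open separately into the urethra, and each lobe is a set of ducts lined by tall secretory luminal cells over scattered basal cells, wrapped in smooth muscle and connective tissue. The luminal cells depend on androgen and release proteins, ions, zinc, citrate and polyamines into the seminal fluid. The lobes are known to secrete different proteins, and lobe-specific secretory products serve as markers of each lobe.

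In both lobes the RNA carried the markers of prostate epithelium, and the lobes separated on every array. Levels are on the log2 scale throughout, where the median of each array is 1.85. The luminal markers, such as Krt18, a keratin of simple epithelia, were high in both lobes, and their summed linear level was 4851 to 5689 on the DLP arrays and 4439 to 5155 on the VP arrays. Single markers still differed between the lobes. By the limma test given below, 3 of 9 were higher in DLP and 5 in VP (33.3 percent and 55.6 percent, against 27% and 26.6% of all genes). Krt18 was the 1 that did not pass. The first principal component of the 9 arrays held 77.2% of the variance and had each DLP array on one side and each VP array on the other. Correlations over probe sets were 0.989 to 0.992 within DLP, 0.967 to 0.989 within VP, and 0.892 to 0.927 between the lobes. A probe set varied less within DLP than within VP, with a median standard deviation (SD) of 0.123 against 0.172.

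3 arrays stood apart within their group. HFD VP 3 had the highest macrophage markers, with a mean log2 level of 4.80 against 3.13 to 3.54 on the other VP arrays and 2.91 to 3.09 on the DLP arrays. HFD DLP 2 had raised levels of transcripts that are otherwise ventral, described below. HFD VP 2 had the highest seminal vesicle transcripts, with Svs4 at 5.76 and Svs5 at 5.27. Svs4 was 4.20 on HFD DLP 1 and at most 1.94 on each other array, and no seminal vesicle marker passed the filter. Gapdh 3′ minus 5′ signal, a measure of RNA integrity, was lower in DLP by a mean of -0.16 (two-sided exact permutation p = 0.048, 4 against 5 arrays), and 18S ribosomal RNA probe sets were higher in DLP by 0.396 with the same p, whereas the Gapdh measure's counterpart for Actb differed by -0.00375 (exact permutation p = 0.968). Adjusted over the 5 RNA quality and control measures by the Benjamini-Hochberg method, the first 2 had an exact permutation p of 0.106. The part of cell composition, RNA quality and these arrays in the results was not tested beyond the values given beside them. In bulk tissue, fewer cells of a type and less RNA per cell cannot be told apart.

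A majority of the genes tested differed between the lobes, nearly evenly in both directions. Of 11143 genes, 3014 (27%) were higher in DLP and 2965 (26.6%) higher in VP, together 5979 or 53.7%, by limma with Benjamini-Hochberg adjustment over all probe sets tested at a threshold of 0.05. Among the 9663 genes above the median on all 9 arrays the share was 53.6%. Counted as probe sets, 11672 of 23265 (50.2%) passed. The lobes did not overlap, so that each array of one lobe lay above each array of the other, for 5079 genes (45.6%). Most differences were small, with a median fold of 1.45 among genes higher in DLP and 1.44 among those higher in VP. At the other end, 26 genes were at least 16-fold higher in DLP and 23 at least 16-fold higher in VP. For 159 of the genes higher in DLP and 150 of those higher in VP, no array of the lower lobe reached its median. A fold against such low levels depends on the constant added before the logarithm: with 16 in place of 1, the difference of Tgm4 was 8.44 in place of 10.84.

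The genes furthest apart in each direction, Tgm4 and Spink5, code for secreted proteins. Tgm4, the prostate transglutaminase that cross-links seminal proteins, was 12.73, 12.59, 12.59 and 12.73 on the 4 DLP arrays and 1.41, 2.37, 1.62, 1.91 and 1.79 on the 5 VP arrays. It stood near the top of each DLP array and near or below the median of each VP array. Its difference was 10.84 ± 0.15 (SE), or 1830-fold, with limma's adjusted p of 2.2e-21. Pate14, of the PATE family of small cysteine-rich secreted proteins, was 11.51, 11.44, 11.87 and 11.81 in DLP and 0.39, 2.41, 0.83, 1.03 and 0.91 in VP. On the ventral side, Spink5, a multidomain serine protease inhibitor, was 0.74, 3.27, 1.06 and 1.50 in DLP and 10.01, 8.96, 9.02, 9.94 and 9.74 in VP. Its difference was -7.89 ± 0.41 (SE), 238-fold lower in DLP, with limma's adjusted p of 2.5e-12.

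**Figure D1:**
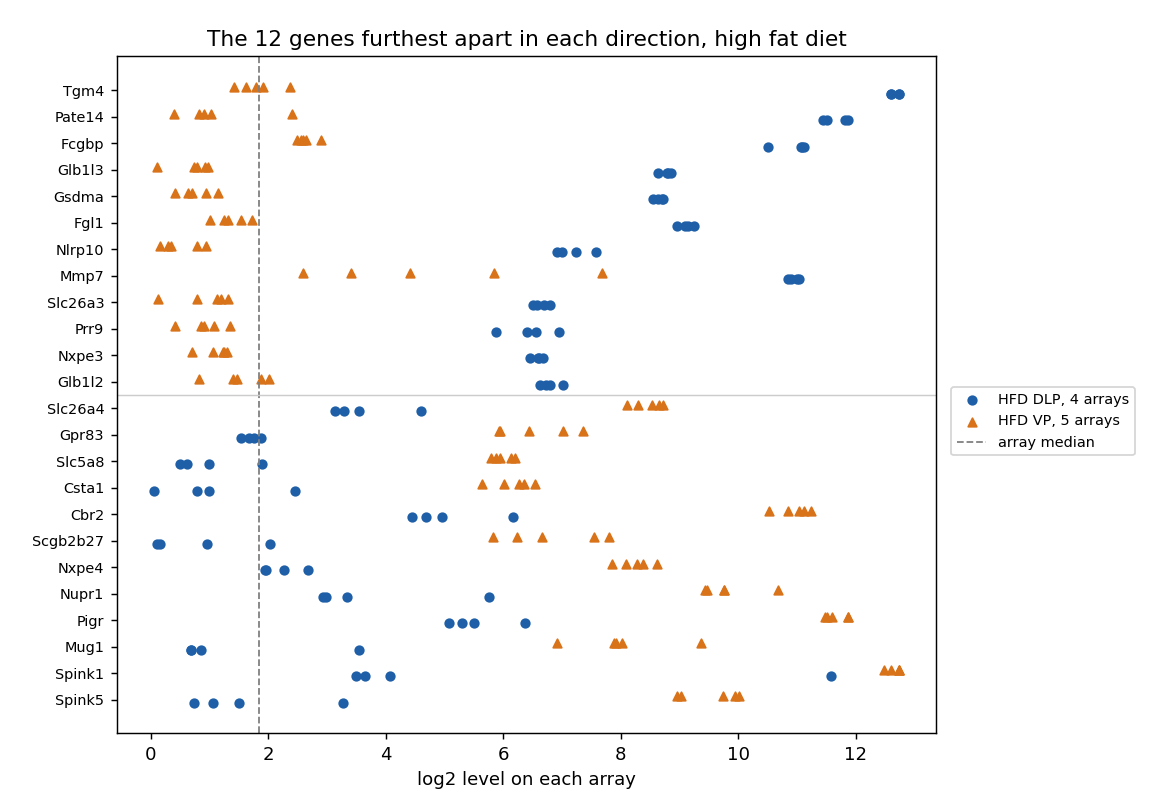
Log2 level on each high fat array of the 12 genes with the largest difference in each direction whose lobes do not overlap (circles, 4 DLP arrays; triangles, 5 VP arrays; dashed line, array median of 1.85). Tgm4 and Pate14 sit above 11 in DLP and below 2.5 in VP. Spink5 and Mug1 show the reverse. Spink1 has a single DLP array, at 11.58, close below the ventral levels of 12.48 to 12.73.

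The promoters of 3 genes in each direction are shown because their transcripts are among those that differ most between 2 epithelia of the same androgen-dependent gland. Those in DLP are the 3 furthest apart, and those in VP follow Spink5 and Spink1, whose promoters are not shown here. The sequences are from RefSeq on build GRCm38.p6. Each sequence runs 5′ to 3′ on the gene's own strand from 250 bases before the transcription start to 50 after it. Capitals mark matches to a motif. Those higher in DLP were Tgm4 (chr9:123034491-123034790, plus strand), Pate14 (chr9:36638553-36638852, minus strand) and Fcgbp (chr7:28070986-28071285, plus strand).
Tgm4: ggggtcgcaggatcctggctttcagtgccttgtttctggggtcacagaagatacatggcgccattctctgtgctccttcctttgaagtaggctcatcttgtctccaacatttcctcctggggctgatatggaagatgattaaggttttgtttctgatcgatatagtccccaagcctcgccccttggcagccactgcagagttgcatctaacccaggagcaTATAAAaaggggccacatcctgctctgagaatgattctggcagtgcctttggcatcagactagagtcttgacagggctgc
Pate14: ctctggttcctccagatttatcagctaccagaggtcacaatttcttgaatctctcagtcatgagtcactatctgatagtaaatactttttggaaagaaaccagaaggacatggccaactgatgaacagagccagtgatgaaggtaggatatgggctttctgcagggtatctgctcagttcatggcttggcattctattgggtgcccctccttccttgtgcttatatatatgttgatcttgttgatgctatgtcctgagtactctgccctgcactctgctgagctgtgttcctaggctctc
Fcgbp: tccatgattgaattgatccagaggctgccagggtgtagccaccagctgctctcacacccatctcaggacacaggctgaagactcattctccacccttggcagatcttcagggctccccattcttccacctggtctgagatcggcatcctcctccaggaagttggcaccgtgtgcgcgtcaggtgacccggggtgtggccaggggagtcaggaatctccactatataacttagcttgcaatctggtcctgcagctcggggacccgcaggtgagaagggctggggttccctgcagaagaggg

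Those higher in VP were Mug1 (chr6:121838291-121838590, plus strand), Pigr (chr1:130826434-130826733, plus strand) and Nupr1 (chr7:126625421-126625720, minus strand).
Mug1: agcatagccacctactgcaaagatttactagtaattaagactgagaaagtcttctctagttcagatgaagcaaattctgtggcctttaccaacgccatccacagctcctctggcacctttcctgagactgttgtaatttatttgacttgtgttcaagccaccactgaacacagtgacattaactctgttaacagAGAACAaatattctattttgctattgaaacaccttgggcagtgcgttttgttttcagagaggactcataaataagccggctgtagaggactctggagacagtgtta
Pigr: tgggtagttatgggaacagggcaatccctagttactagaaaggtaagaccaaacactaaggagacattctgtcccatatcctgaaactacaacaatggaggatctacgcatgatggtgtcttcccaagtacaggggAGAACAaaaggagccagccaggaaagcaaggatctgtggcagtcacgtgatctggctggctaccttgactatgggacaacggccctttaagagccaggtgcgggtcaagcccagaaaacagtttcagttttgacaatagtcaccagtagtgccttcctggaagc
Nupr1: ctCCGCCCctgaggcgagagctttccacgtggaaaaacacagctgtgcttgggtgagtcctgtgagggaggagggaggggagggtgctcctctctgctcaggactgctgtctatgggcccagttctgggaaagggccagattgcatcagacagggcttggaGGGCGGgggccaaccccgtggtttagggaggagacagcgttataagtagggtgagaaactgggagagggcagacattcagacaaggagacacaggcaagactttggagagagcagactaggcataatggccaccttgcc

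Motifs were searched on both strands: TATAAA (the TATA box), the full palindromic androgen response element, TGTTCT (1 arm of that element, so that each full element also holds it), TGTTTAC (forkhead), CAATAAA (HOX13) and GGGCGG (GC box). Tgm4 held TATAAA 30 bases before its start. Mug1 and Pigr held the androgen hexamer TGTTCT 56 and 114 bases before the start, both on the opposite strand. Nupr1 held 2 GC boxes, 248 and 89 bases before the start, and Pate14 and Fcgbp held none of the 6 motifs in this window. Of all 27025 promoters in the table, 14.1% held TATAAA, 19.2% TGTTCT, 3.58% the forkhead motif, 4.83% the HOX13 motif, 35.6% the GC box and 0% the full androgen response element. Among promoters of genes at least 16-fold higher in DLP (21 of 26 genes matched), TATAAA was in 23.8%, TGTTCT in 23.8% and the GC box in 38.1%. For those at least 16-fold higher in VP (19 of 23 matched), the shares were 21.1%, 42.1% and 21.1%. Over the 9012 tested genes with a promoter the shares were 7.1%, 12% and 64.9%. These are matches of letters in short windows of few promoters and are given as a description.

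Of 27 listed prostate secretory proteins, 24 were on the array and 18 passed the filter. 9 were higher in DLP (50 percent of those tested, against 27% of all genes) and 4 higher in VP (against 26.6%), with a median difference of 1.51 against -0.00256 over all genes. The filter admits a gene that is high in 1 lobe alone, and of the 10 members above the median on all 9 arrays 3 were higher in DLP and 2 in VP. Fcgbp, a mucin-like protein that binds immunoglobulin G in mucus, was 11.11, 11.09, 11.07 and 10.50 in DLP and 2.56, 2.65, 2.49, 2.90 and 2.60 in VP. It was 316-fold higher in DLP, and its difference was 8.30 ± 0.24 (SE; limma's adjusted p = 2.8e-16). The β-galactosidase-like proteins Glb1l3 and Glb1l2 differed by 8.06 and 5.27, and the fibrinogen-like secreted protein Fgl1 by 7.74. Ceacam10, a secreted member of the CEA family, was 7.66, 7.30, 6.95 and 7.60 in DLP and at most 2.96 in VP.

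Some secretory transcripts were uniform in DLP and spread widely in VP. Mmp7, the secreted metalloprotease matrilysin, was 11.00, 10.84, 11.03 and 10.89 in DLP and 4.41, 2.59, 5.85, 7.68 and 3.41 in VP. Its difference was 6.15 ± 0.67 (SE; limma's adjusted p = 1.8e-07), and 6.87 without HFD VP 4. Pbsn, which encodes the androgen-regulated lipocalin probasin, was 12.48, 12.39, 12.73 and 12.59 in DLP and 11.84, 9.03, 11.98, 7.97 and 10.67 in VP. The lobes did not overlap, but 3 VP arrays lay within 2 units of the lowest DLP array, and VP 2 and VP 4 lay furthest below. Its difference was 2.25 ± 0.76 (SE; limma's adjusted p = 0.018). It missed the threshold without HFD VP 4, at 1.66 with an adjusted p of 0.058, or without HFD VP 2, at 1.93 with an adjusted p of 0.051. Msmb, a microseminoprotein, was 12.59, 12.73, 12.18 and 12.03 in DLP and 12.59, 10.59, 12.92, 10.19 and 12.18 in VP. It was abundant in both lobes and lowest on the same VP 2 and VP 4 arrays, and its difference of 0.69 had a 95% interval from -0.46 to 1.83 (limma's adjusted p = 0.32).

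The 4 secretory transcripts higher in VP were Spink5, Spink1, Mug1 and Pigr. Spink1, a secreted trypsin inhibitor, was 3.50, 11.58, 3.64 and 4.07 in DLP and 12.73, 12.73, 12.48, 12.59 and 12.73 in VP. HFD DLP 2 lay close to the ventral level while the other DLP arrays lay near 4. The difference was -6.95 ± 1.23 (SE; limma's adjusted p = 8.5e-05), and -8.91 without HFD DLP 2, -6.22 without HFD DLP 1 and -6.27 without HFD DLP 3. Mug1, a murinoglobulin that traps proteases of many classes, was 0.68, 3.54, 0.69 and 0.85 in DLP and 7.89, 9.37, 6.92, 7.91 and 8.02 in VP. Here too DLP 2 was the highest of its group, and the difference was -6.58, or -7.28 without that array. Pigr, the receptor that carries polymeric IgA across epithelia, was 5.29, 6.37, 5.07 and 5.51 in DLP and 11.51, 11.87, 11.87, 11.48 and 11.60 in VP. It differed by -6.11 ± 0.30 (SE; limma's adjusted p = 9.8e-13), a 69-fold lower level in DLP.

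Other genes far apart belonged to varied families. Gsdma, a gasdermin able to form membrane pores, was 8.70, 8.54, 8.64 and 8.72 in DLP and 0.70, 0.64, 1.15, 0.41 and 0.94 in VP. Nlrp10, of the NOD-like receptor family, was 7.0, 6.91, 7.57 and 7.23 in DLP and 0.16, 0.35, 0.78, 0.94 and 0.29 in VP. Both were below the median on each VP array, and they differed by 7.88 and 6.68. The secreted ribonucleases Rnase1 and Ang differed by 5.06 and 4.54, and Id3, an inhibitor of basic helix-loop-helix factors, by 4.25. Prr9, Tcaf2 and Plac8 were higher in DLP by 5.53, 4.75 and 4.20. Nxpe3 was higher in DLP by 5.47 by its highest probe set, while another of its probe sets differed by 1.29.

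On the ventral side, Nupr1, a stress-induced nuclear protein, was 2.99, 5.76, 2.93 and 3.34 in DLP and 9.44, 10.67, 9.47, 9.76 and 9.75 in VP. Its difference was -6.06, and -6.73 without HFD DLP 2. Nxpe4, of the same family as Nxpe3, differed in the opposite direction from it, by -6.03. Hdac9, a class II histone deacetylase, was 0.83, 2.11, 1.49 and 1.72 in DLP and 6.35, 6.61, 5.89, 6.16 and 6.69 in VP. Of the 17 histone deacetylases and sirtuins tested, 2 were higher in VP and 2 in DLP (11.8 percent each, against 26.6% and 27% of all genes). Among the 17, Hdac9 was the only one with a difference above 1 in size, at -4.80. Gpr83, a G protein-coupled receptor, differed by -4.83, and the potassium channel subunits Kcnk3 and Lrrc26 by -4.27 and -4.28. The secretoglobin Scgb2b27 differed by -6.00, and -6.65 without HFD DLP 2 and HFD VP 3. It has close paralogs that a probe set may not tell apart.

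Transcription factors and signals that pattern the urogenital tract were measured in 2 lists. Of 46 patterning factors tested, 20 were higher in DLP and 13 in VP, against background shares of 27% and 26.6%, with a median difference of 0.23. The zinc finger factors Gata2 and Gata3 were both higher in DLP. Gata2 was 7.83, 7.54, 7.89 and 7.89 in DLP and 4.42, 3.31, 4.37, 3.57 and 3.54 in VP, a difference of 3.94 ± 0.23 (SE; limma's adjusted p = 1.2e-11). Gata3 was 7.21, 6.87, 7.21 and 7.24 in DLP and 4.33, 4.43, 4.54, 4.77 and 4.53 in VP. Neither gene overlapped between the lobes. The chromatin organizer Satb1 differed by 3.83, the Notch target Hey1 by 2.26 and the ligand Bmp7 by 2.10.

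Among HOX genes, which mark position along the body axis, 30 were on the array and 16 passed the filter, of which 7 were higher in DLP and 2 in VP, against background shares of 27% and 26.6%. Of the 9 above the median on all 9 arrays, 3 were higher in DLP and 2 in VP. Hoxb9 was 3.76, 3.24, 3.62 and 3.72 in DLP and 1.64, 1.28, 1.72, 1.73 and 1.71 in VP, under the array median on each VP array. Hoxa9, Hoxa10 and Hoxd8 differed by 1.74, 1.03 and 0.88. Hoxb13, the most posterior gene of its cluster and a marker of prostate epithelium, was 8.06, 7.88, 7.81 and 7.69 in DLP and 8.85, 8.90, 8.38, 8.54 and 8.82 in VP. Its lobes did not overlap, and the difference was -0.84 ± 0.11 (SE), with limma's adjusted p of 1.8e-06. Its direction was opposite to that of Hoxb9, Hoxa9, Hoxa10 and Hoxd8. The other HOX gene higher in VP was Hoxa13, with a difference of -0.28 (limma's adjusted p = 0.041). Hoxa13 missed the threshold without HFD VP 1 (limma's adjusted p = 0.092) and without some other arrays.

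The androgen receptor axis went both ways, as all genes did. Of 18 tested members, 7 were higher in DLP and 6 in VP (38.9 percent and 33.3 percent, against 27% and 26.6% of all genes). The median difference was 0.03, against -0.00256 over all genes. Foxa1, a forkhead factor that opens chromatin for the androgen receptor, was 8.43, 8.53, 8.55 and 8.41 in DLP and 9.49, 9.69, 9.22, 9.42 and 9.61 in VP. Fkbp5, a cochaperone induced by androgen and glucocorticoid, was also higher in VP, with a difference of -1.32. The estrogen receptor Esr1 was 6.38, 6.06, 6.30 and 6.31 in DLP and 4.32, 4.33, 4.62, 4.07 and 4.14 in VP, a difference of 1.97 ± 0.11 (SE; limma's adjusted p = 4.8e-12). The steroid dehydrogenase Hsd17b11 was higher in DLP by 1.37.

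Protease inhibitors and proteases differed in both directions. Of 22 inhibitors tested, 10 were higher in VP and 5 in DLP, against 26.6% and 27% of all genes, with a median difference of -0.13. Of the 18 inhibitors above the median on all 9 arrays, 7 were higher in VP and 5 in DLP, with a median of 0.02. Of 25 proteases, 9 were higher in DLP and 6 in VP (36 percent and 24 percent, against 27% and 26.6% of all genes). The inhibitor list shares Spink5, Spink1 and Mug1 with the secretory list. Csta1, a cystatin that inhibits cysteine proteases, was 0.99, 2.45, 0.06 and 0.78 in DLP and 6.26, 6.54, 6.35, 5.64 and 6.02 in VP. Wfdc2, a whey acidic protein, was 2.15, 2.06, 1.97 and 1.93 in DLP and 4.76, 4.19, 7.70, 7.38 and 4.88 in VP, where it was highest on VP 3 and VP 4. The metalloprotease inhibitors Timp4 and Timp2 differed by -3.12 and -2.17. In the other direction, the Kazal inhibitor Spink8 was higher in DLP by 3.75. Among proteases besides Mmp7, the carboxypeptidases Cpe and Cpm and the dipeptidyl peptidase Dpp4 were higher in DLP, by 2.90, 2.59 and 1.91, and the aminopeptidase Anpep was higher in VP, with a difference of -2.62.

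Enzymes that build O-linked and fucosylated glycans differed gene by gene. Of 27 mucins and glycosylation genes tested, 14 were higher in DLP and 5 in VP (51.9 percent and 18.5 percent, against 27% and 26.6% of all genes). The median difference was 0.40, and of the 19 above the median on all 9 arrays 9 were higher in DLP and 3 in VP. The fucosyltransferase Fut9 was 5.51, 5.55, 5.46 and 5.66 in DLP and 1.81, 1.30, 2.20, 1.68 and 1.82 in VP, a difference of 3.78 ± 0.14 (SE; limma's adjusted p = 2.4e-14). Fut8, which adds core fucose to N-glycans, differed by 2.83. Several Galnt genes of mucin-type O-glycosylation were higher in VP, with differences of -2.43 for Galnt7, -1.94 for Galnt3 and -1.33 for Galnt4. The lobes did not overlap for these 3 genes.

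Ion transporters of the 2 lobes differed in kind. Of 24 tested, 12 were higher in VP and 4 in DLP (50 percent and 16.7 percent of the list, against 26.6% and 27% of all genes), with a median difference of -0.43. Of the 16 above the median on all 9 arrays, 7 were higher in VP and 3 in DLP. In DLP, Slc26a3, a chloride and bicarbonate exchanger, was 6.50, 6.58, 6.79 and 6.70, against 1.13, 0.12, 1.20, 0.79 and 1.32 in VP. Atp12a, a proton and potassium pump, was 8.28, 8.25, 8.46 and 8.30 in DLP and 4.30, 2.45, 4.79, 2.29 and 3.55 in VP. Both were well apart, with differences of 5.73 and 4.85, and the carbonic anhydrase Car2 was higher in DLP by 1.06.

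In VP the sodium, potassium and chloride cotransporter Slc12a2 was 12.39, 12.59, 12.07, 12.31 and 12.48, against 7.99, 9.0, 7.74 and 7.71 in DLP. Slc26a4, the anion exchanger pendrin, was 8.53, 8.65, 8.29, 8.10 and 8.71 in VP and 3.54, 4.60, 3.14 and 3.29 in DLP. For both genes HFD DLP 2 was the highest DLP array and still lay more than 3 units below the lowest VP array. Slc5a8, a sodium-coupled monocarboxylate transporter, differed by -4.99, and the epithelial calcium channel Trpv6 by -4.43. For Trpv6 the difference was -5.08 without HFD DLP 2 and HFD VP 3.

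Zinc, citrate and polyamines accumulate in prostatic fluid, and the genes that handle them went both ways, as all genes did. Of 18 zinc transporters and metallothioneins tested, 8 were higher in DLP and 5 in VP (44.4 percent and 27.8 percent, against 27% and 26.6% of all genes). Slc30a2, which exports zinc into vesicles, was 5.05, 5.23, 4.88 and 5.33 in DLP and 1.93, 1.25, 2.08, 1.40 and 1.85 in VP, a difference of 3.42 ± 0.22 (SE; limma's adjusted p = 7.4e-11). The importer Slc39a8 and the metal-binding metallothioneins Mt3 and Mt1 were higher in DLP by 2.96, 1.76 and 1.74. In VP, the importer Slc39a6 and the exporters Slc30a4 and Slc30a1 were higher, with differences of -1.73, -1.06 and -0.91.

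In citrate metabolism, 3 of 15 tested genes were higher in DLP and 6 in VP (20 percent and 40 percent, against 27% and 26.6% of all genes). Ank, a membrane protein known to export pyrophosphate and citrate, was 3.10, 3.62, 3.26 and 3.24 in DLP and 6.77, 7.51, 6.48, 6.58 and 7.0 in VP, a difference of -3.56 ± 0.24 (SE; limma's adjusted p = 1.9e-10). Idh3a, of the citric acid cycle, differed by -1.11. Of 12 polyamine genes, 4 were higher in DLP and 2 in VP (33.3 percent and 16.7 percent). Those 2 were the enzymes at the entry to the pathway. Odc1, ornithine decarboxylase, was 6.78, 6.78, 6.64 and 6.77 in DLP and 8.52, 8.10, 7.42, 8.01 and 8.28 in VP. Arg1, arginase, was 1.12, 1.13, 1.08 and 1.67 in DLP and 3.78, 3.94, 6.33, 4.37 and 3.51 in VP. Arg1 is also a macrophage gene and was highest on HFD VP 3, the array with the highest macrophage markers. It lay under the array median on each DLP array. Without HFD VP 3, the polyamine list had 4 genes higher in DLP and 4 in VP. The transporter Atp13a3 was higher in DLP by 1.40.

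Genes for folding proteins in the endoplasmic reticulum (ER) were mostly higher in DLP. Of 29 ER folding and unfolded protein response genes tested, 19 were higher in DLP (65.5 percent, against 27% of all genes) and 4 in VP (13.8 percent, against 26.6%), with a median difference of 0.62. Of the 28 members above the median on all 9 arrays, 18 were higher in DLP and 4 in VP. Atf6, an ER-stress sensor and transcription factor, was 6.79, 6.71, 6.93 and 6.91 in DLP and 4.79, 4.71, 4.56, 4.91 and 4.67 in VP, with no overlap. Its difference was 2.11 ± 0.09 (SE; limma's adjusted p = 1.3e-13). The ER proteins Creld2 and Sdf2l1 were higher in DLP by 1.98 and 1.59, the stress-response factor Atf4 by 1.44, the secreted ER factor Manf by 1.27 and the chaperone Hsp90b1 by 1.00.

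The list did not move as one. Hspa5, the main ER chaperone BiP, was 10.42, 10.19, 10.46 and 10.75 in DLP and 10.92, 10.55, 9.30, 10.11 and 10.59 in VP, and its difference of 0.17 had a 95% interval from -0.36 to 0.69 (limma's adjusted p = 0.61). Ero1b, an oxidase that supports disulfide formation, was 3.51, 3.70, 3.51 and 3.69 in DLP and 5.80, 5.70, 5.35, 5.30 and 5.95 in VP. Xbp1, a transcription factor of the same response, was also higher in VP, with a difference of -0.38. Of 43 genes of the wider secretory machinery, 20 were higher in DLP and 6 in VP (46.5 percent and 14 percent, against 27% and 26.6% of all genes), with a median of 0.20. Within it, the ER-bound factor Creb3l1 and the signal recognition particle gene Srp14 were higher in DLP by 1.49 and 1.16. Bhlha15 (Mist1), a factor of professional secretory cells, was 6.74, 6.80, 6.39 and 6.40 in DLP and 8.29, 8.43, 6.87, 7.90 and 8.41 in VP.

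Interferon-induced genes had the largest share of members higher in VP among the lists tested. Of 25 tested, 22 were higher in VP (88 percent, against 26.6% of all genes) and 0 in DLP, and 19 did not overlap between the lobes (background 45.6%), with a median difference of -1.28. Of the 19 members above the median on all 9 arrays, 17 were higher in VP. Ifit1, which binds foreign RNA, was 2.43, 2.07, 2.05 and 1.83 in DLP and 5.44, 7.06, 6.64, 4.19 and 7.24 in VP. Rsad2 (viperin) was 2.94, 3.60, 2.75 and 2.49 in DLP and 4.48, 7.36, 6.17, 3.91 and 6.87 in VP. The DLP arrays were uniform and the VP arrays spread over more than 3 units, with VP 4 lowest for both genes. The differences were -4.02 ± 0.51 (SE; limma's adjusted p = 1.5e-06) for Ifit1 and -2.81 ± 0.51 (SE; limma's adjusted p = 0.00011) for Rsad2. Rtp4, Ifit3 and Oasl2 differed by -3.12, -2.92 and -2.44. The 3 members that did not pass were Mx1, Gbp3 and Oas2, and their differences were -0.80, -0.69 and -0.49.

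**Figure D2:**
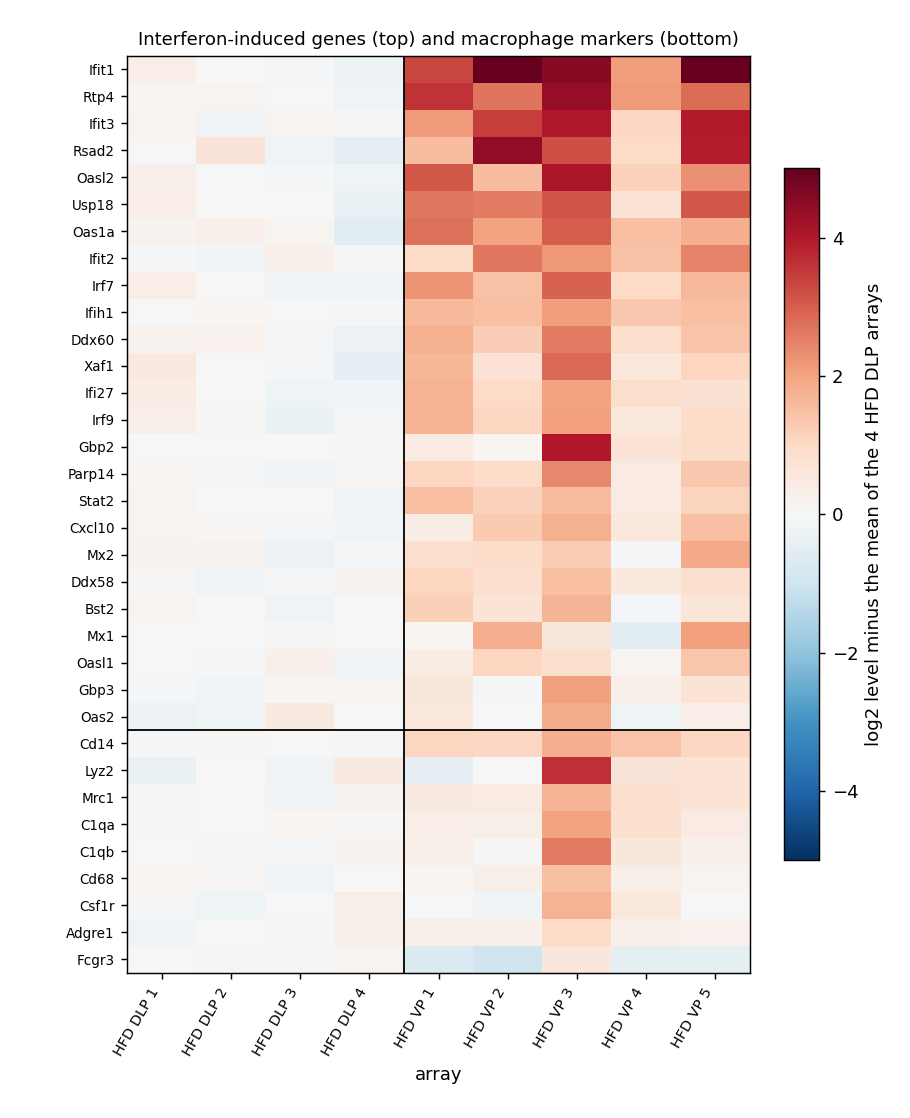
Heat map of the 25 interferon-induced genes (top) and 9 macrophage markers (bottom) on each high fat array, as log2 level minus the mean of the 4 DLP arrays, with colours ending at 5 in either direction. Interferon-induced genes are raised on all 5 VP arrays, least on VP 4, while macrophage markers are raised mainly on VP 3.

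Macrophage markers passed as higher in VP at a share near that of all genes. Of 9 tested, 3 were higher in VP (33.3 percent, against 26.6% of all genes) and 0 in DLP, with a median of -0.76. Their summed linear level was 78.1 to 99.6 on the DLP arrays and 91.7 to 487 on the VP arrays. Cd14, a coreceptor for bacterial lipopolysaccharide, was 2.50, 2.63, 2.60 and 2.52 in DLP and 3.65, 3.60, 4.37, 4.00 and 3.58 in VP. Mrc1, the mannose receptor, differed by -0.81, and missed the threshold without HFD VP 3 (-0.59, limma's adjusted p = 0.059) or without HFD DLP 3 (-0.76, adjusted p = 0.051). Without HFD VP 3, 1 macrophage marker was higher in VP and 1 in DLP, with a median of -0.26. The interferon-induced list without that array still had 22 genes higher in VP and a median of -1.06, and without both HFD VP 3 and HFD DLP 2 it had 20. On the control diet, 17 of the 25 passed, with a median of -0.95.

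Antigen presentation and complement genes passed less often than all genes. Of 6 MHC class II genes, 1 was higher in VP (16.7 percent, against 26.6% of all genes) and 0 in DLP. It was H2-DMa, which loads peptides onto class II molecules, with a difference of -0.97 and its highest value, 4.41, on HFD VP 3. Cd74, the invariant chain, was 4.77, 4.92, 4.77 and 5.06 in DLP and 5.37, 4.94, 7.34, 6.18 and 5.32 in VP, and its difference of -0.95 had limma's adjusted p of 0.054. It passed without HFD VP 1, HFD VP 2, HFD VP 5, control VP 3 or control VP 5, with an adjusted p from 0.022 to 0.045. Igha, the IgA heavy chain that Pigr transports after assembly, was 2.89, 6.05, 2.14 and 1.78 in DLP and 6.67, 5.81, 8.49, 7.71 and 5.91 in VP. DLP 2 overlapped the ventral values, and the difference was -3.71 (limma's adjusted p = 0.0019), or -4.65 without DLP 2. Jchain, which joins IgA units, differed by -0.55 with an interval from -1.95 to 0.84.

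Among 15 complement, acute phase and antimicrobial genes, 3 were higher in DLP and 3 in VP (20 percent each, against 27% and 26.6% of all genes). The 3 in DLP included both proteases of the C1 complex. C1ra was 8.28, 8.27, 8.12 and 8.64 in DLP and 2.94, 2.97, 3.86, 3.12 and 3.24 in VP, a difference of 5.10 ± 0.17 (SE; limma's adjusted p = 4e-15). C1s1 differed by 1.93. The third, the β-defensin Defb1, was 10.80, 11.46, 10.36 and 10.10 in DLP and 9.71, 6.83, 10.05, 7.34 and 8.64 in VP, again lowest on VP 2 and VP 4. It is also on the list for epididymis and ductus deferens, of which Lcn5, Lcn8 and Rnase10 were below the median on all 9 arrays. Adam7, of the same list, also failed the filter but was not below the median on every array. Without HFD VP 3 the counts were 4 in DLP and 2 in VP, and the median of the list went from -0.28 to 0.17.

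Markers of several stromal and basal cell types were higher in DLP. Of 8 basal epithelial markers tested, 6 were higher in DLP (75 percent, against 27% of all genes) and 0 in VP (against 26.6%). Of the 5 above the median on all 9 arrays, 3 were higher in DLP and 0 in VP. The list had a median of 0.64 and a summed linear level of 217 to 234 in DLP against 140 to 170 in VP. The basal keratin gene Krt5 was 4.38, 4.15, 4.22 and 4.18 in DLP and 3.65, 3.16, 3.61, 3.70 and 3.48 in VP. Trp63, the defining transcription factor of basal cells, differed by 0.23 with a 95% interval from -0.06 to 0.53 (limma's adjusted p = 0.18). The smooth muscle list moved likewise, with 9 of its 12 markers higher in DLP (75 percent) and 0 in VP. It had a median of 0.59 and a summed level of 4193 to 4545 in DLP against 2638 to 3658 in VP. Cnn1, a calponin of contractile cells, was 8.24, 8.15, 8.33 and 8.31 in DLP and 6.89, 6.76, 7.23, 7.0 and 6.84 in VP. Actg2 and Mylk differed by 1.20 and 1.15, whereas Tagln differed by -0.10 with an interval from -0.27 to 0.06.

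Of 9 endothelial markers, 5 were higher in DLP and 0 in VP, against 27% and 26.6% of all genes, with Plvap at 0.89 and Vwf at 0.77. Of the 4 above the median on all 9 arrays 2 were higher in DLP, and on the control diet 3 of the 9 passed. Of 5 nerve markers that passed the filter, 3 were higher in DLP (60 percent, against 27% of all genes) and 0 in VP. However, 4 of the 5 were below the median on each VP array, so they passed the filter through DLP. The count was 1 with 16 as the added constant, 5 with the 9 high fat arrays fitted alone, and 0 of the 1 marker above the median on all 9 arrays. Stmn2, of growing neurites, was 2.54, 2.64, 2.91 and 3.04 in DLP and 1.62, 1.02, 0.83, 1.43 and 1.47 in VP, and Th, the enzyme of noradrenergic nerves, differed by 1.07. With 16 as the added constant, Stmn2 missed the threshold (limma's adjusted p = 0.15). Cpa3, of mast cells, differed by 1.29. Stmn2, Th and Cpa3 lay under the array median on each VP array. Of 10 fibroblast markers, 2 were higher in DLP and 1 in VP (20 percent and 10 percent, below the shares of all genes). The adipocyte markers Adipoq, Lep, Retn and Cidec were below the median on all 9 arrays. Car3 also failed the filter but was not below the median on every array. Of the 2 adipocyte markers tested, Lpl, lipoprotein lipase, was higher in DLP by 1.39. Fabp4, a fatty acid-binding protein, was higher in VP with a difference of -0.54 by its highest probe set. Another Fabp4 probe set passed as higher in DLP. The urothelial plaque genes Upk1b and Upk1a differed in opposite directions, by 1.46 and -1.57.

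Of 35 matrix genes tested, 9 were higher in DLP and 5 in VP (25.7 percent and 14.3 percent, against 27% and 26.6% of all genes). The type IV collagen gene Col4a6 was 7.26, 7.07, 7.65 and 7.11 in DLP and 2.40, 2.04, 2.21, 1.97 and 2.24 in VP, a difference of 5.10 ± 0.14 (SE; limma's adjusted p = 8.9e-17). Its partner Col4a5, which forms basement membrane chains with it, differed by 1.65. The small proteoglycan gene Lum was higher in DLP by 1.44, while Thbs1 and Col6a3 were higher in VP, with differences of -1.23 and -1.03. Thbs1 was highest on HFD VP 3, at 5.91 against 3.58 to 4.50 on the other VP arrays. Without HFD VP 3, 15 of the 35 were higher in DLP and 5 in VP.

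Counts of keratins and junction genes of the epithelium itself went both ways, as those of all genes did. Of 11 keratins, 4 were higher in DLP and 5 in VP (36.4 percent and 45.5 percent, against 27% and 26.6% of all genes). Krt4 and Krt7 were the most ventral, at -1.79 and -1.44. Of 26 claudins and junction genes, 7 were higher in DLP and 9 in VP (26.9 percent and 34.6 percent), near those shares of all genes. Cldn8, a barrier-forming claudin, was 8.16, 8.17, 8.24 and 8.04 in DLP and 6.27, 5.49, 6.35, 6.08 and 6.03 in VP. Cldn10, a pore-forming claudin, was 5.76, 6.61, 5.53 and 4.99 in DLP and 8.22, 8.09, 7.79, 8.01 and 8.29 in VP. Neither overlapped between the lobes, and they differed by 2.11 and -2.36. The gap junction gene Gjb2 was higher in VP, with a difference of -3.23, and the desmosomal cadherin Dsc2 in DLP by 1.99.

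The title of the series names the glutathione peroxidase Gpx3, and between the lobes it did not differ beyond its spread. Gpx3, which is secreted, was 5.89, 5.69, 5.58 and 5.90 in DLP and 5.41, 6.15, 6.34, 5.18 and 5.96 in VP, and its difference of -0.04 had a 95% interval from -0.60 to 0.51 (limma's adjusted p = 0.91). Of the 6 glutathione peroxidases tested, Gpx8, of the ER, was the one that passed (16.7 percent of the list, against 53.7% of all genes). It was 3.77, 3.96, 3.53 and 3.61 in DLP and 5.44, 5.42, 5.67, 5.41 and 5.40 in VP, a difference of -1.75 ± 0.10 (SE; limma's adjusted p = 1.1e-11). Gpx1, Gpx2, Gpx4 and Gpx7 differed by -0.02, 0.11, -0.09 and 0.17. A second probe set of Gpx4 differed by 0.62 and passed, higher in DLP.

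Enzymes that detoxify carbonyls and bind retinoids were mostly higher in VP. Of 24 tested, 13 were higher in VP and 2 in DLP (54.2 percent and 8.33 percent, against 26.6% and 27% of all genes), with a median of -0.42. Of the 15 above the median on all 9 arrays, 9 were higher in VP and 1 in DLP. Crabp1, a retinoic acid-binding protein, was 0.95, 1.36, 0.67 and 0.91 in DLP and 5.45, 5.85, 4.30, 4.78 and 5.75 in VP. Cbr2, a carbonyl reductase, was 4.95, 6.17, 4.44 and 4.69 in DLP and 11.11, 10.52, 10.84, 11.24 and 11.04 in VP. The differences were -4.26 and -5.89, and DLP 2 was the highest DLP array for both. Aldh1a7 and Akr1c13 differed by -2.70 and -2.04. The 2 higher in DLP were the retinol transporter gene Stra6, by 0.75, and the retinol dehydrogenase gene Rdh11, by 0.99.

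Glutathione transferases and other antioxidants went both ways. Of 19 transferases, 9 were higher in VP and 5 in DLP (47.4 percent and 26.3 percent, against 26.6% and 27% of all genes). Gstk1 and Gstt1 were higher in VP, with differences of -2.36 and -1.95, and Gsta2 was higher in DLP by 2.44. Of 25 other antioxidant genes, 10 were higher in VP and 8 in DLP (40 percent and 32 percent). Nfe2l2 (Nrf2), the regulator of many of them, was 4.68, 4.73, 4.61 and 4.51 in DLP and 5.83, 5.94, 5.88, 5.84 and 5.87 in VP. Cat, catalase, was higher in VP with a difference of -1.34. Gss, glutathione synthetase, and Sod1, cytosolic superoxide dismutase, were higher in DLP by 1.33 and 0.76.

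**Figure D3:**
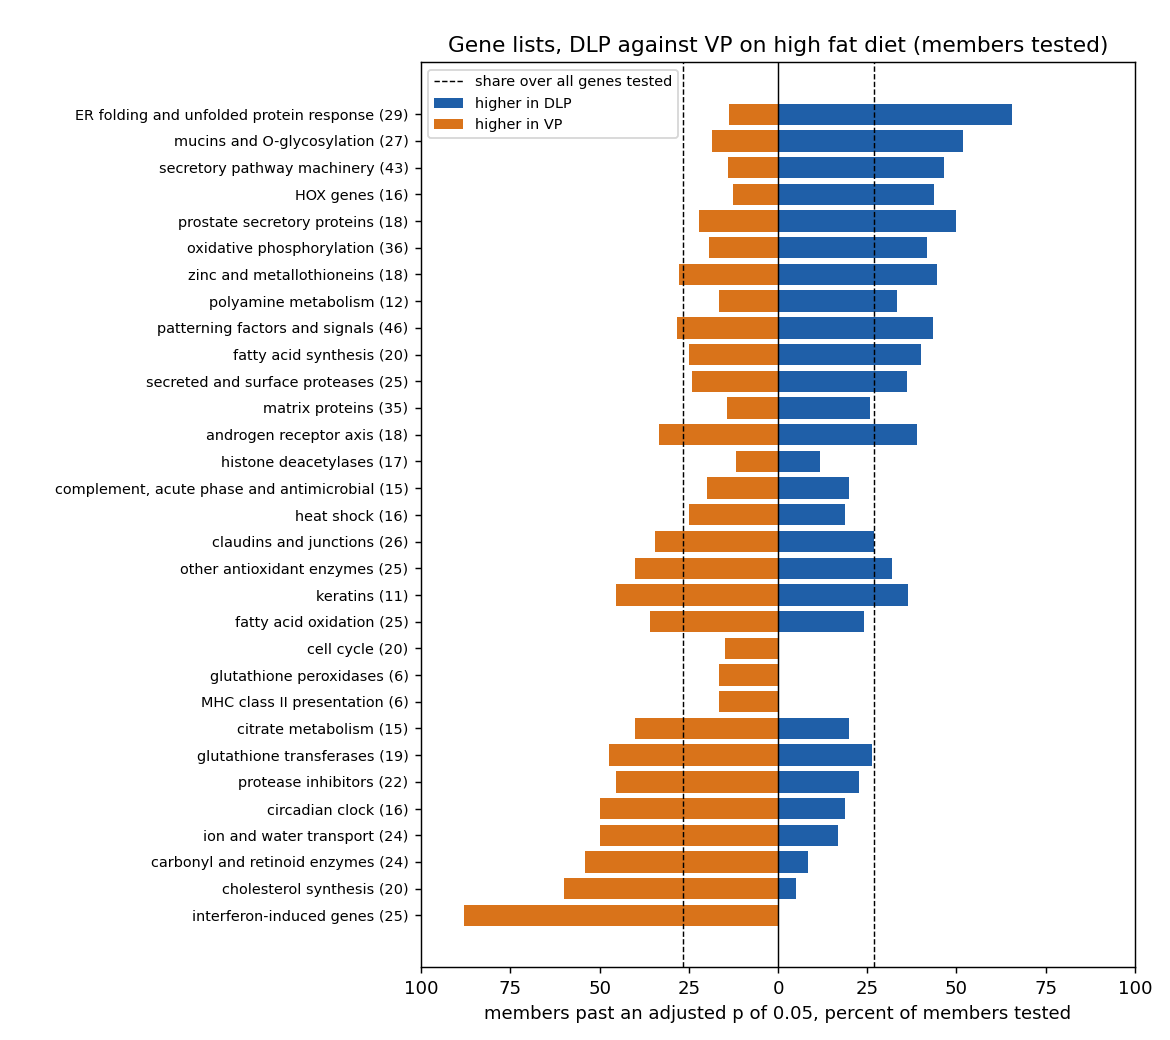
Share of each pathway or family list, cell type markers not drawn, past limma's adjusted p of 0.05 on the high fat diet, to the right for genes higher in DLP and to the left for genes higher in VP, with the number of members tested in brackets and dashed lines at the shares over all genes (27% and 26.6%). Of the lists drawn, ER folding genes reach furthest to DLP and interferon-induced genes, at 88 percent, furthest to VP.

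Sterol genes leaned to VP, whereas other lipid and energy genes were nearer the background. Of 20 cholesterol synthesis genes, 12 were higher in VP and 1 in DLP (60 percent and 5 percent, against 26.6% and 27% of all genes), with a median of -0.44. Sc5d, a sterol desaturase, was 3.65, 3.85, 3.71 and 3.71 in DLP and 5.65, 6.07, 5.19, 5.57 and 5.55 in VP. Idi1, an isoprenoid isomerase, differed by -1.27, and the 1 gene higher in DLP was Mvk, mevalonate kinase, by 0.41. Hmgcs1, at the start of the pathway, differed by 0.30 with an interval from -0.02 to 0.62.

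Of 20 fatty acid synthesis genes, 8 were higher in DLP and 5 in VP (40 percent and 25 percent, against 27% and 26.6% of all genes). Gpam and Scd2 differed by -1.18 and -1.07, and Acsl3 by 1.07. Of 25 fatty acid oxidation genes, 6 were higher in DLP and 9 in VP (24 percent and 36 percent). Acaa2, a mitochondrial thiolase, was 6.08, 6.27, 6.04 and 6.05 in DLP and 8.07, 8.22, 7.58, 8.03 and 8.09 in VP, and Ppargc1a, a coactivator of mitochondrial genes, differed by -1.41. Of 36 oxidative phosphorylation genes, 15 were higher in DLP and 7 in VP (41.7 percent and 19.4 percent), with a median of 0.06. The ATP synthase gene Atp5h differed by 0.89 and Sdha of complex II by -0.91.

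Of 16 circadian clock genes, 8 were higher in VP and 3 in DLP (50 percent and 18.8 percent, against 26.6% and 27% of all genes). Nfil3, a repressor linked to the clock, was 3.56, 3.85, 3.46 and 3.14 in DLP and 6.06, 6.10, 6.12, 5.65 and 5.63 in VP. Per2 differed by -1.20 and Hlf by 0.96. The hour of dissection was not among the labels used here. Of 20 cell cycle genes, 3 were higher in VP (15 percent, below the 26.6% of all genes) and 0 in DLP. The proliferation marker Mki67 was low in both lobes, at 2.37, 2.53, 2.51 and 2.50 in DLP and 1.93, 2.84, 3.24, 2.40 and 2.17 in VP, with a difference of -0.04 and an interval from -0.84 to 0.76. The cell cycle inhibitor Cdkn1b differed by -1.29 and the condensin subunit Ncaph by -1.88. Of 16 heat shock genes, 3 were higher in DLP and 4 in VP (18.8 percent and 25 percent, against 27% and 26.6% of all genes).

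Few lobe differences could be told apart between the diets. With each diet fitted alone, 5938 genes passed on the high fat diet and 5945 on the control diet, of 11143, and 4771 passed on both with the same sign, which is 80.3% of either set. 4 genes passed on both with opposite signs. In the fit to all 19 arrays, 6173 genes (55.4%) and 12063 probe sets (51.9%) passed on the control diet. Over all genes the differences on the 2 diets had a Pearson correlation of 0.959, as a description over genes that cannot count as replicates. The 2 contrasts share no array. Tgm4 differed by 10.84 on the high fat diet and 10.80 on the control diet, Pate14 by 10.54 and 11.17, and Spink5 by -7.89 and -6.70.

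**Figure D4:**
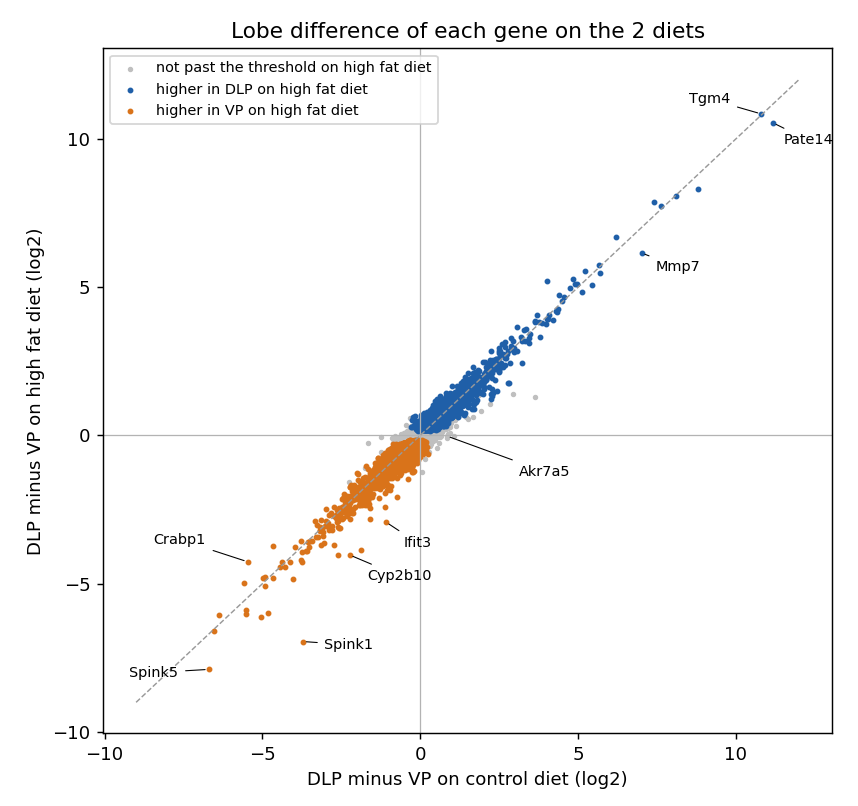
Lobe difference (DLP minus VP, log2) of each of 11143 genes on the control diet (horizontal axis) and on the high fat diet (vertical axis), with the dashed line marking equal differences. Points lie along the line from Spink5 to Tgm4. Akr7a5, at -0.02 on high fat and 0.84 on control, lies off it.

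In the direct test of the difference between diets, 2 of 23265 probe sets (0.0086%) passed limma's adjusted threshold, 1 in each direction (0.0043% each), and 1933 had an unadjusted p under 0.05, against 1163 that chance would give. One was a probe set of Akr7a5, an aldo-keto reductase. On the high fat diet it was 4.86, 4.67, 4.69 and 4.80 in DLP and 4.91, 4.72, 4.78, 4.82 and 4.66 in VP. On the control diet it was 4.81, 4.85, 4.80, 4.94 and 5.19 in DLP and 3.83, 4.11, 4.32, 4.09 and 4.06 in VP. The control VP arrays were the low group. The lobe difference was -0.02 on high fat and 0.84 on control, a change of -0.86 ± 0.13 (SE; limma's adjusted p = 0.028). With 1 array left out its adjusted p was at most 0.11. The probe set may bind related transcripts, and another probe set of the gene differed between the lobes by 0.35 on high fat. The other was a probe set of Ikbkg, a subunit of the kinase that activates NF-κB, at 0.69 on high fat and -0.39 on control, a change of 1.08 ± 0.17 (SE; limma's adjusted p = 0.028). It missed the threshold in 14 of the 19 fits that left out 1 array, at most 0.13, as Akr7a5 did in 15. Neither passed with the replicate number as a block, where limma's adjusted p was 0.142 for Akr7a5 and 0.199 for Ikbkg. A further probe set of Ikbkg changed by 0.17 with an adjusted p of 0.76.

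Among genes with large lobe differences, none passed that test, and several had wide intervals. Cyp2b10, a xenobiotic-metabolizing cytochrome P450, was 2.02, 3.10, 2.37 and 2.16 in DLP and 6.89, 6.68, 5.78, 5.93 and 6.92 in VP on high fat. On the control diet it was 2.71, 3.70, 2.97, 3.40 and 2.96 in DLP and 5.18, 5.43, 4.87, 5.37 and 6.08 in VP. Its lobe difference was -4.03 on high fat and -2.24 on control, a change of -1.79 ± 0.38 (SE; limma's adjusted p = 0.15). For Crabp1 the change was 1.21 (adjusted p = 0.4), for Spink1 -3.23 (adjusted p = 0.64) and for Ifit1 -1.43 (adjusted p = 0.61). For Tgm4 it was 0.04 ± 0.21 (SE).

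Ventral transcripts were present at raised levels on a single high fat DLP array. Of the 23 genes at least 16-fold higher in VP, HFD DLP 2 was the highest DLP array for 22, and the median log2 level of the 23 was 2.80 there against 1.75, 2.05 and 1.83 on DLP 1, 3 and 4. Ifit1 was the exception, with DLP 1 highest at 2.43. The control arrays held a similar case, with control DLP 2 the highest of its 5 for 18 of the 23 and a median of 2.63 against 1.83 to 2.30 on the others. The level of Spink1, 11.58 on HFD DLP 2 and 11.81 on control DLP 2, was also 10.21 on control DLP 4. In the other direction, the 26 genes at least 16-fold higher in DLP had medians of 1.62 to 1.87 on the 5 high fat VP arrays. HFD VP 3 was the highest VP array for 10 of the 26, HFD VP 4 for 7 and each other high fat VP array for 3. Without HFD DLP 2, Igha, Mug1, Nupr1 and Spink1 moved by more than 1.5-fold, all further from 0, to -4.65, -7.28, -6.73 and -8.91. Without HFD DLP 2 and HFD VP 3, Spink5 differed by -8.57.

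**Figure D5:**
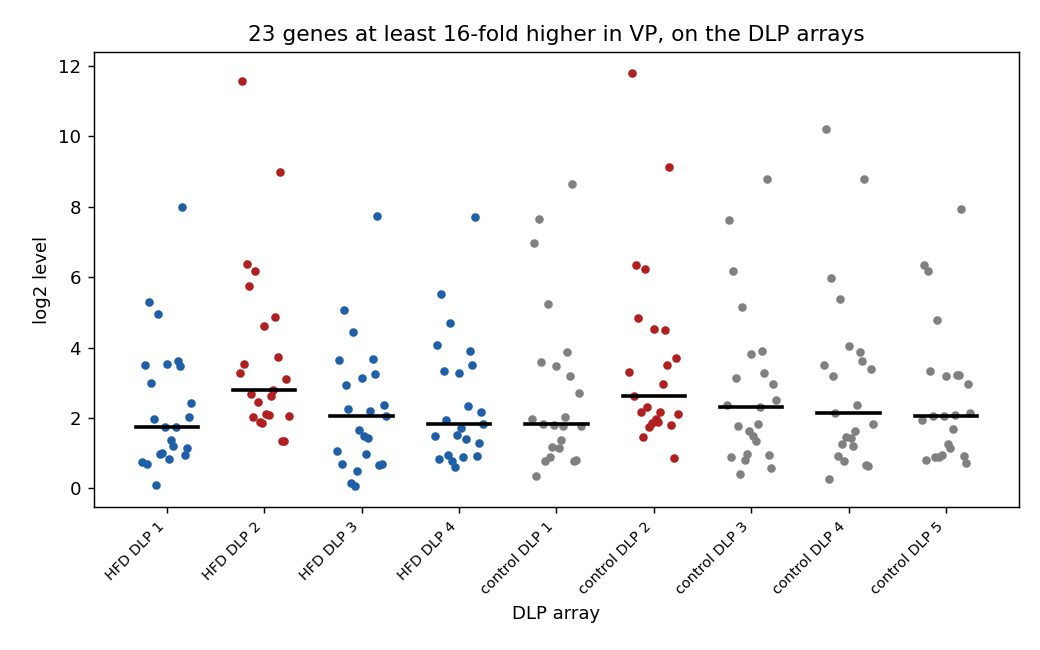
Log2 level of the 23 genes at least 16-fold higher in VP on high fat, 1 point per gene, on the 4 high fat and 5 control DLP arrays, with a bar at each array's median. HFD DLP 2 and control DLP 2, in red, have medians of 2.80 and 2.63, and the other arrays lie between 1.75 and 2.30.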

How the data were processed

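The deposited table gave values inferred here to be log10 for 45101 probe sets on 19 arrays. The submitters' processing notes name MAS5. Each array held the same sorted values, between 0 and 3.99 around a median of 0.555, so a level depends on rank and a shift common to most genes could not be seen. Which step made them so was not given in the sources used here. Neither is the log base, which was inferred from hybridization controls: the step from bioB to bioC was 0.535 against a nominal 0.523 on the log10 scale, from bioC to bioD 0.735 against 0.699, and from bioD to cre 0.963 against 0.602. An offset of 1 was taken. Every fold and log2 value rests on that base, whereas p-values do not.

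Values were converted to log2 with no further normalization, 64 control probe sets were left out, and probe sets above their array's median on at least 4 of the 9 high fat arrays were kept (23265, with 21772 not passing). By the platform annotation 34958 probe sets carry 1 symbol, 932 carry several and 9211 carry none, and 34754 symbols were updated by gene identifier. Each gene was represented by its probe set of highest mean. Of 5136 genes with more than 1 probe set, 2900 passed, 1843 of them with another probe set passing the same way and 234 with one passing the opposite way. Slc26a3, Ang, Cyp2b10, Mt1, Srp14, Krt14, Cldn10, Akr7a5, Acsl3, Hmgcs1, Acaa2, Ncaph and Syne4 rest on probe sets that may bind several transcripts. For Fabp4 another probe set passed the opposite way.

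Group means of 4 groups were fitted to all 19 arrays by limma 3.58.1 under R 4.3.3, using lmFit and an eBayes prior that depends on the mean. Adjusted p-values are two-sided Benjamini-Hochberg values over all probe sets tested, at a threshold of 0.05. RNA quality measures were compared by exact permutation tests. On data simulated for the high fat lobe contrast over 23265 probe sets, the fit recovered 62.7% of 67 probe sets changed by 0.5, 98.5% of 67 changed by 1 and 100% of 66 changed by 2, on the log2 scale, with 7 false calls. The simulated noise was independent between arrays with the same SD in all groups, and no other probe sets were changed. In the data 50.2% of probe sets passed and VP varied more than DLP, so these rates check the fit and do not describe this comparison.

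The comparison, its members and the gene lists were chosen with earlier results of these data known. Genes were named by rule: the 12 furthest apart in each direction whose lobes did not overlap, the 10 furthest apart in each direction that also lay above the median on all 9 arrays, up to 5 passing and 2 other members per list, all glutathione peroxidases, and the 5 genes with the smallest p for the difference between diets. Ceacam10, Pbsn, Spink8, Timp2, Timp4, Galnt4, Car2, Slc30a1, Slc30a4, Manf, Hsp90b1, Hspa5, Xbp1, Oas2, Stra6, Rdh11, Mvk and Mki67, and the seminal vesicle, epididymal and adipocyte genes named, were chosen after their values were seen. Alternatives changed the offset, filter, probe set choice, prior, array weights, scaling, replicate block and threshold, or left out arrays. The number of arrays limits the precision.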

Additional observations from a re-analysis of the deposited data

Results flagged for a closer look

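Values of the named genes were set against the others of their group with Dixon's test at the 95% level. Of 382 gene and group pairs, 29 had an array far from the rest, while chance gives about 1 in 20. HFD DLP 2 held 7 of the 29 and HFD VP 3 held 5.

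On HFD DLP 2, Spink1 was 11.58 against 3.50 to 4.07 on the other DLP arrays, Mug1 3.54 against 0.68 to 0.85, Nupr1 5.76 against 2.93 to 3.34, and Trpv6 2.63 against 1.21 to 1.44. The same array held Ncaph at 3.78 against 3.44 to 3.48 and Lbp, a lipopolysaccharide-binding protein, at 3.56 against 3.31 to 3.33, and it had the lowest Gata3, 6.87 against 7.21 to 7.24. In the lobe comparison the first 6 of these genes were higher in VP and Gata3 was higher in DLP, so each of the 7 values lay on the ventral side of its group. Why this array differs was not tested.

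On HFD VP 3, the array with the highest macrophage markers, H2-DMa was 4.41 against 2.69 to 3.03 on the other VP arrays, Lpl, lipoprotein lipase, 4.48 against 2.73 to 3.21, Adgre1, the macrophage marker F4/80, 3.42 against 2.66 to 2.73, Lbp 5.19 against 3.58 to 3.94, and Gpx8 5.67 against 5.40 to 5.44. Lbp and Adgre1 passed the threshold in the lobe comparison and missed it without this array, with limma's adjusted p of 0.15 and 0.1, and both also missed it without some other arrays, HFD DLP 1 among them (0.09 and 0.11).

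On HFD VP 2, which held the highest seminal vesicle transcripts, Nupr1 was 10.67 against 9.44 to 9.76, and 3 genes were lowest: Glb1l3 at 0.11 against 0.74 to 0.98, Hoxb9 at 1.28 against 1.64 to 1.73 and the basal keratin gene Krt14 at 1.49 against 1.90 to 1.95. On HFD VP 4, Mt1 was 9.97 against 10.54 to 10.62, Atf4 5.67 against 5.94 to 6.01 and Slc30a1 4.40 against 4.67 to 4.73. On HFD VP 1, Creb3l1 was 2.24 against 1.66 to 1.82. On HFD VP 5, Hlf was 2.34 against 2.63 to 2.74.

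In DLP, HFD DLP 4 had Fcgbp at 10.50 against 11.07 to 11.11, Hoxa9 at 6.64 against 6.42 to 6.43 and Arg1 at 1.67 against 1.08 to 1.13. HFD DLP 3 had Hoxa10 at 4.99 against 5.24 to 5.27, Odc1 at 6.64 against 6.77 to 6.78 and the endothelial gene Plvap at 2.80 against 3.26 to 3.32. HFD DLP 1 had Slc39a6 at 4.13 against 4.29 to 4.32 and Gpx2 at 3.16 against 3.61 to 3.68.

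The difference between the lobes changed with diet by -0.86 for Akr7a5 and by 1.08 for a probe set of Ikbkg, both by the direct test of that change in limma (adjusted p of 0.028 each). Both calls were fragile. With 1 array left out, Akr7a5 missed the threshold in 15 of 19 fits and Ikbkg in 14, no probe set passed in 12, and none passed with the replicate block.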

How the results depend on the processing

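The high fat lobe comparison gave 11672 probe sets, and under the settings run its 173 passing named genes changed sign 0 times. Of the 18 named genes that did not pass, 7 changed sign in 16 fits without passing, Gpx3, Hspa5 and Mki67 among them without HFD VP 3 (0.09, -0.08 and 0.14). With the diet difference of Akr7a5 included, in 70 of 6264 pairs of value and setting a passing value no longer passed and in 16 a value newly passed. Settings with fewer probe sets tested gave lower counts: 7466 on high fat and 7491 on control above the 75th percentile of the array, and 6054 and 6241 with 1 probe set per gene. Leaving out 1 array in each of 19 fits gave 10515 to 12063 on high fat. The count for the difference between diets, 2, was 1 under each of those smaller sets, with 1 weight per lobe and with housekeeping scaling, 0 at a threshold of 0.01, 0 to 3 with 1 array left out, and 0 without HFD DLP 2 and HFD VP 3.

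The labels name no link between equal replicate numbers. Same-numbered lobes correlated at 0.149, 0.0722, 0.000648 and 0.146 on high fat, against at most 0.0544, 0.0163, 0.0642 and 0.0594 with another number, and were the closer in 3 of 4 pairs on high fat and 3 of 5 on control. Whether the numbers mark shared mice was not settled. With the replicate block, 10955 probe sets passed on high fat, 11839 on control and 0 for the difference between diets. Cd74 passed under the block. Cyclic loess or housekeeping scaling put the median of all probe sets at -0.00702 or -0.0183.

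Of the named genes, 10 lost their call in at least 1 setting, and 1 of them, Stmn2, had an adjusted p under 0.01 before. Mfap5, Herpud1, Hoxa13, Galnt11 and Aqp1 missed it without at least 1 array, Mx1 passed without HFD VP 1 or HFD VP 4, and Gbp3 without HFD VP 2. Hmgcs1 and Top2a passed with the 9 high fat arrays alone, at limma's adjusted p of 0.021 and 0.034. Levels near the array median have the least signal over background, and large folds that rest on them fell with a larger offset.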
